A study of Homo sapiens with 23 samples.

Results

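The 10 genes described here belong to the cytoplasmic lipid droplet and were followed through the differentiation of human embryonic stem cells into cardiomyocytes: the 5 perilipins that coat droplets (PLIN1, PLIN2, PLIN3, PLIN4 and PLIN5), the 3 lipases that break stored fat down in sequence (PNPLA2, LIPE and MGLL), and the activator and the inhibitor of the first lipase (ABHD5 and G0S2). They were chosen by name and looked up by Ensembl identifier, and make up 10 of the 57477 genes in the count table. The cells were H1-hESC, an established human embryonic stem cell line with the genotype WT. RNA was taken on 8 days of a directed differentiation: day 0 (labelled Stem Cell), day 1 (Mesendoderm), day 3 (Cardiac mesoderm), days 5 and 7 (both Cardiac progenitors) and days 10, 14 and 28 (all Cardiomyocyte). There were 3 libraries on each day except day 10, which had 2, giving 23 libraries. Stem cells were kept in mTesR1 and the derived cardiomyocytes in RPMI with insulin, so the medium changed along with the cell type and the effects of both cannot be told apart. The labels name no agent, dose or knockdown in these samples. Every day comes from the same single cell line, and nothing in the labels says whether the libraries of a day came from separate cultures, so the p-values below measure only the spread between these libraries.

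Lipid droplets store neutral fat, mostly triglyceride, behind a single layer of phospholipid. Perilipins sit on that layer and govern the access of lipases to the fat. PLIN2 and PLIN3 are found in most tissues, PLIN1 and PLIN4 mainly in fat cells, and PLIN5 in tissues that burn fatty acids, the heart among them. PNPLA2 (adipose triglyceride lipase, ATGL) removes the first fatty acid from triglyceride, LIPE (hormone-sensitive lipase) acts on the diglyceride that is left, and MGLL (monoglyceride lipase) on the monoglyceride. ABHD5 (CGI-58) activates PNPLA2, and G0S2 binds PNPLA2 and inhibits it. The heart takes up fatty acids, passes part of them through droplets and oxidises them as its main adult fuel.

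All 10 genes had enough reads to be tested, among 22245 genes that were. Library totals ran from 4330334 counts (day 5 replicate 3) to 22089595 counts (day 0 replicate 2). Levels are given as CPM, a gene's share of the library total after scaling by edgeR's TMM factor, with the SD over libraries, and levels of different genes are compared only as CPM per kilobase of exon (CPM per kb). The markers of the labelled cell types were present on their days but not confined to them. The summed CPM of POU5F1, NANOG and SOX2 was 1996 to 2202 on day 0, 1512 to 2458 on day 1 and 0.863 to 0.925 on day 28. That of TNNT2, MYH6, MYH7, ACTN2 and MYL7 was 6.71 to 8.06 CPM on day 0 and 26467 to 39367 CPM on day 28. TBXT, MIXL1 and EOMES summed to 2568 to 3478 CPM on day 1. MESP1, MESP2 and PDGFRA summed to 311 to 472 CPM on day 3 and 269 to 814 CPM on day 5. ISL1, NKX2-5, TBX5 and HAND2 summed to 201 to 435 CPM on day 5 and 409 to 455 CPM on day 7. On day 10 these 4 had 491 to 533 CPM. Libraries of the same day differed in the balance between GC-rich and GC-poor genes, measured as the mean log2 deviation from the day's mean in the top of 4 equal groups of genes by GC content minus that in the bottom group. This balance was within 0.181 of 0 in every library of days 0, 7, 14 and 28, but it was -1.27 in day 5 replicate 2 and 1.05 in day 5 replicate 3, and -0.753 in day 3 replicate 1. Results that rest on day 5 are therefore given with and without those libraries. The balance was -0.561 in day 1 replicate 2, and the other libraries of days 1, 3, 5 and 10 lay between -0.35 and 0.409. A balance shared by all libraries of a day does not show in this measure, so days with values near 0 can still differ from each other in it. In bulk RNA, fewer cells of a type and less RNA per cell cannot be told apart.

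In GRCh38 coordinates the perilipins lie on 3 chromosomes: PLIN1 at chr15:89664367-89679427, PLIN2 at chr9:19108375-19149290, PLIN3 at chr19:4838341-4867694, and PLIN4 (chr19:4502192-4518486) next to PLIN5 (chr19:4522531-4535224), all on the minus strand. These 2 neighbours are 4044 bases apart. PNPLA2 is at chr11:818914-825573 on the plus strand, LIPE at chr19:42401514-42427388 and MGLL at chr3:127689062-128052190, both on the minus strand. ABHD5 is at chr3:43690108-43734371 and G0S2 at chr1:209675412-209676390, both on the plus strand. Some exons overlap other genes: 1047 bases of PLIN5 lie in a second gene model on the same strand that held 61 counts, 500 bases of LIPE lie opposite LIPE-AS1 (418 counts), and 170 bases of ABHD5 lie opposite ANO10 (13491 counts). In addition, 17 bases of PLIN4 lie opposite HDGFL2 (36063 counts). Long non-coding RNA genes lie opposite 502 bases of PLIN3 (0 counts) and 401 bases of PNPLA2 (36 counts). Whether the authors' counting used strand is not given in the sources used here. The values of LIPE, ABHD5, PLIN3, PLIN4 and PNPLA2 may therefore hold some antisense reads.

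Promoter sequence was matched in RefSeq (GRCh38.p14) for 9 of the 10 genes, all except MGLL. The 250 bases before the start site are shown for G0S2, whose RNA changed most, for its target PNPLA2, and for the perilipins PLIN2 and PLIN5, which rose on day 1. Each runs 5′ to 3′ on the gene's strand and ends at the base before the start. Capitals mark exact matches, on either strand, to the TATA box, written TATAAA, to the CCAAT box, whose name gives its letters, or to the GC box, written GGGCGG.
G0S2, chr1:209675162-209675411, plus strand: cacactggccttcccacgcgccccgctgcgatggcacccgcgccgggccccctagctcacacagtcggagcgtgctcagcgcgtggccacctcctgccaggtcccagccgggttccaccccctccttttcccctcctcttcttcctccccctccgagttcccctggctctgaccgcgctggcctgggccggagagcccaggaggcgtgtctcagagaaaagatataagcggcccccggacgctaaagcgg
PNPLA2, chr11:818664-818913, plus strand: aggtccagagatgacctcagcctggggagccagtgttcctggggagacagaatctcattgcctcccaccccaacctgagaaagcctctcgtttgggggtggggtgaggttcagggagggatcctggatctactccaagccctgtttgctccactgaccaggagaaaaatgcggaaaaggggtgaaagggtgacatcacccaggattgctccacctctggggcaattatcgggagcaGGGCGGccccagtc
PLIN2, chr9:19127493-19127742, minus strand: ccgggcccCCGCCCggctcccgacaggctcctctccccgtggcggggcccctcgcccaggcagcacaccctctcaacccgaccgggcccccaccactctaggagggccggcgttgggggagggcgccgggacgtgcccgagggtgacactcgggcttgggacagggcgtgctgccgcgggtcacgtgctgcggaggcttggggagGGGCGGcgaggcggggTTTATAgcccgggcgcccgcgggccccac
PLIN5, chr19:4535225-4535474, minus strand: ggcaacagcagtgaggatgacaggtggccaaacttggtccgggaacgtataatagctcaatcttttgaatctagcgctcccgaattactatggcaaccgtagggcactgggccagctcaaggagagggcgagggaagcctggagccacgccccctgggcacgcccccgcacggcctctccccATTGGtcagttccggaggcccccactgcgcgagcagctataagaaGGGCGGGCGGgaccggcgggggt
The G0S2 window held none of these 3 motifs, has a GC content of 69.2% and 21 CpG dinucleotides, and overlaps an exon of the antisense RNA gene HSD11B1-AS1. PNPLA2 had 1 GC box with its first base at position -14 relative to the start, and 4 CpG dinucleotides. PLIN2 had a TATA box on the strand opposite to the gene (TTTATA as printed) beginning at -29, 2 GC boxes, and 1 E-box (CACGTG) beginning at -69. It was the only one of the 9 with the TATA box, with the E-box or with the core of a hypoxia response element (ACGTG), which overlaps the E-box in 2 of its 3 matches. PLIN5 had 1 CCAAT box and 2 overlapping GC boxes. In the same 250 bases of 35116 RefSeq promoters, on either strand, the TATA box occurred in 10.7%, the CCAAT box in 32%, the GC box in 42.6%, the E-box in 6.34% and the hypoxia core in 18.5%. Among the 9 genes, 1 held the TATA box, 4 the CCAAT box and 5 the GC box.

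**Figure D1:**
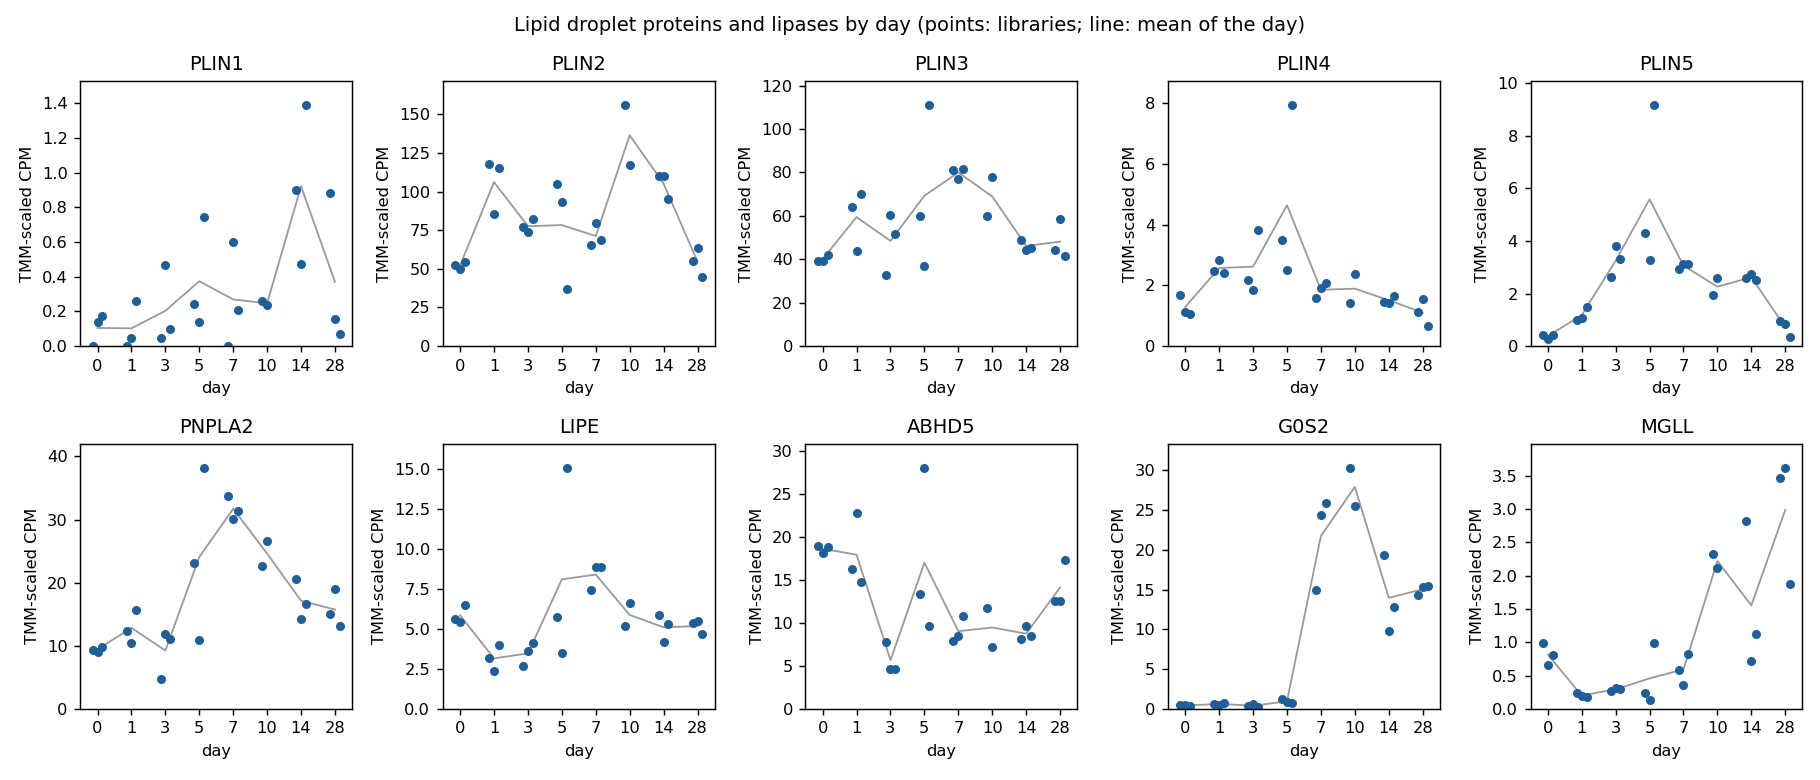
Levels of the 10 genes in every library. The horizontal axis is the day of differentiation (days evenly spaced, not to scale), the vertical axis TMM-scaled CPM (its range differs between panels), each point is 1 library and the line joins the means of the days. G0S2 stays at or under 1.2 CPM up to day 5 and lies at 9.76 CPM or above from day 7, and day 5 replicate 3 is the highest library of PLIN3, PLIN4, PLIN5, PNPLA2 and LIPE.

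PLIN2, the coat protein of droplets in most cells and a usual marker of fat loading, rose at the first step and was back near its starting level on day 28. Its level was 52.4, 49.7 and 54.2 CPM in the 3 libraries of day 0 and 118, 85.5 and 115 CPM in those of day 1. The groups did not overlap, and the log2 change was 1.03 (SE 0.271, adjusted p = 0.00611 by edgeR's quasi-likelihood test). Its highest mean was on day 10, with 156 and 117 CPM in the 2 libraries, followed by 110, 110 and 95.5 CPM on day 14 and 55.4, 63.8 and 44.7 CPM on day 28. PLIN2 fell from day 14 to day 28 by 0.95 on the log2 scale (SE 0.271, adjusted p = 0.0169 in edgeR), with all 3 day 28 libraries under all 3 of day 14. That call was lost when day 14 replicate 1 or 2, or day 28 replicate 1 or 3, was left out, with an adjusted p of up to 0.101. Day 28 did not differ from day 0 beyond the spread (log2 change 0.07, SE 0.269, adjusted p = 0.837 in edgeR), and the rise from day 7 to day 10 (0.94, SE 0.297) missed the threshold at an adjusted p of 0.0518. DESeq2 called that rise, at an adjusted p of 0.0197. So did edgeR with no filter on low counts, with only the 2 days in the fit and with per-library trends on GC content and exon length removed. No fit that left out a day 7 library called it. Leaving out 1 library of either day gave log2 changes of 0.72 to 1.03.

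PLIN3 (TIP47), which moves between the cytosol and new droplets, varied less. The means of its 8 days lay between 40.1 ± 1.6 CPM (day 0, SD, n = 3) and 80.0 ± 2.45 CPM (day 7, n = 3), and no step between neighbouring days was called. Its 3 day 7 libraries (81.2, 77.2 and 81.6 CPM) were all above those of day 0 (39.0, 39.4 and 41.9 CPM), a log2 change of 1.00 (SE 0.296, adjusted p = 0.00625 in edgeR). From day 7 to day 28, where the libraries had 44.1, 58.7 and 41.5 CPM, PLIN3 fell by 0.73 (SE 0.295, adjusted p = 0.0423). That fall depends on the treatment of GC content: with per-library trends on GC content and exon length removed it was -0.04 and was not called (adjusted p = 0.814). It was also lost without day 7 replicate 1 or 3, without day 28 replicate 1 or 3, and with no filter on low counts.

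PLIN5, the perilipin of oxidative tissue that tethers droplets to mitochondria, rose early and fell late. It had 0.437, 0.282 and 0.403 CPM on day 0, 1.00, 1.07 and 1.47 CPM on day 1 and 2.62, 3.81 and 3.31 CPM on day 3. The 3 days did not overlap, and both steps were called in edgeR: 1.63 (SE 0.422, adjusted p = 0.00546) from day 0 to day 1, and 1.45 (SE 0.348, adjusted p = 0.00193) from day 1 to day 3. Day 7 (2.94, 3.13 and 3.11 CPM) was above day 0 by 3.01 on the log2 scale (SE 0.408, adjusted p = 1.02e-06 in edgeR). Between day 14 (2.59, 2.74 and 2.52 CPM) and day 28 (0.959, 0.848 and 0.360 CPM) PLIN5 fell by 1.85 (SE 0.393, adjusted p = 0.00147), again with no overlap. Every one of these PLIN5 calls was kept under all alternatives run. The cells of day 28 held less PLIN5 RNA than the progenitors of day 7 (log2 change -2.08, SE 0.391, adjusted p = 0.000123 in edgeR), and their excess over stem cells was not called (0.94, SE 0.455, adjusted p = 0.0771). In edgeR that excess was called without day 28 replicate 3 (1.26, adjusted p = 0.0231). It was also called with GC and length trends removed (1.26, adjusted p = 0.00321). PLIN5 rests on 537 counts over the 23 libraries, 29 of them on day 28.

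The 2 perilipins best known from fat cells were scarce. PLIN4 had 1.69, 1.13 and 1.04 CPM on day 0 and 2.47, 2.83 and 2.41 CPM on day 1, a rise of 1.00 (SE 0.371, adjusted p = 0.0413 in edgeR). The groups did not overlap, yet the call was lost in 5 of the 6 fits that left out a library of those days, with an adjusted p of up to 0.13, and also in DESeq2 (0.0513), on library totals, with no filter and with GC and length trends removed. Its highest single value, 7.93 CPM, was in day 5 replicate 3, against 3.48 and 2.50 CPM in the other libraries of that day. PLIN1, the main coat protein of fat cell droplets, had 74 counts in all 23 libraries together, at most 1.39 CPM in any, and no change of it was called. At these counts changes of PLIN1 were poorly determined: the SE of its log2 change was 0.802 to 1.28 across the comparisons.

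PNPLA2, the enzyme that starts triglyceride breakdown, was highest on day 7. Its libraries had 9.33, 9.08 and 9.79 CPM on day 0, 4.79, 11.8 and 11.1 CPM on day 3, 23.1, 10.9 and 38.2 CPM on day 5 and 33.7, 30.1 and 31.3 CPM on day 7. Days 3 and 5 overlapped and day 7 lay above both days 0 and 3. The rise from day 3 to day 5 was 1.36 (SE 0.342, adjusted p = 0.00555 in edgeR), but without day 5 replicate 3 it was 0.88 (adjusted p = 0.0599), and without day 3 replicate 1 it was 0.98 (adjusted p = 0.0563), and it was lost with only the 2 days in the fit (adjusted p = 0.134). The rise from day 0 to day 7 was 1.75 (SE 0.338, adjusted p = 0.000113) and held under every alternative. By day 28 (15, 19.0 and 13.2 CPM) PNPLA2 was 1.01 lower than on day 7 (SE 0.331, adjusted p = 0.0147), a difference that was lost without day 28 replicate 3 (adjusted p = 0.0634) and with GC and length trends removed (-0.24, adjusted p = 0.215). All 3 day 28 libraries were above all 3 of day 0, with a log2 change of 0.74 (SE 0.332, adjusted p = 0.0551) that missed the threshold in edgeR. This change passed the threshold in DESeq2 (adjusted p = 0.0481). It also passed in edgeR with only the 2 days in the fit (0.73, adjusted p = 0.000258) and with GC and length trends removed (1.05, adjusted p = 2.81e-06).

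LIPE, the diglyceride lipase of the chain, fell at the first step and rose at the third, both with calls that depend on single libraries. It had 5.62, 5.45 and 6.51 CPM on day 0 and 3.16, 2.34 and 3.97 CPM on day 1, and fell by 0.91 (SE 0.347, adjusted p = 0.0472 in edgeR) with no overlap. This call lies at the threshold and was lost in each of the 6 fits without 1 of those libraries (adjusted p of up to 0.151), and with RLE or upper-quartile factors. LIPE rose from day 3 (2.66, 3.65 and 4.11 CPM) to day 5 (5.75, 3.48 and 15.1 CPM) by 1.14 (SE 0.361, adjusted p = 0.0297), where the groups overlapped, and by 0.40 without day 5 replicate 3 (adjusted p = 0.444). The call was also lost without day 3 replicate 1 or 2, with no filter on low counts and with only the 2 days in the fit. On day 7 LIPE had its highest mean, with 7.44, 8.9 and 8.9 CPM, all above day 0. The change from day 0 was 0.53 (SE 0.339, adjusted p = 0.193 in edgeR), called only with the 2 days alone in the fit. From day 10 onward LIPE libraries lay between 4.17 and 6.60 CPM, overlapping day 0, and day 28 did not differ from day 0 beyond the spread (log2 change -0.18, SE 0.336, adjusted p = 0.665). The fall from day 7 to day 28 (-0.71, SE 0.345, adjusted p = 0.0928) was not called. It was called with upper-quartile factors, on library totals and with only the 2 days, while another alternative gave an adjusted p of 0.877.

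MGLL, the last enzyme of the chain and also the main enzyme that degrades the endocannabinoid 2-arachidonoylglycerol, dipped and then rose late. Its libraries had 0.983, 0.658 and 0.806 CPM on day 0 and 0.231, 0.195 and 0.172 CPM on day 1, a fall of 1.97 (SE 0.566, adjusted p = 0.0109 in edgeR) that held under every alternative. It had 0.587, 0.361 and 0.828 CPM on day 7, 2.32 and 2.12 CPM on day 10, 2.82, 0.714 and 1.13 CPM on day 14, and 3.47, 3.62 and 1.87 CPM on day 28. Day 28 lay above days 0 and 7 without overlap and overlapped days 10 and 14. The log2 change from day 0 to day 28 was 1.86 (SE 0.404, adjusted p = 0.000304) and that from day 7 to day 28 was 2.29 (SE 0.488, adjusted p = 0.000458), both kept under all alternatives. The step from day 7 to day 10 (1.86, SE 0.560, adjusted p = 0.0404) was lost whichever library of those days was left out, with an adjusted p of up to 0.229, with the replicate block (1.81, adjusted p = 0.0638), with upper-quartile factors and on library totals. MGLL rests on 286 counts in all, 9 of them on day 1.

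ABHD5, the activator of PNPLA2, had its highest mean on day 0, with 18.9, 18.1 and 18.8 CPM. Day 1 (16.3, 22.7 and 14.7 CPM) overlapped day 0, and day 3 was lower, with 7.76, 4.58 and 4.61 CPM. The fall from day 1 to day 3 was 1.64 (SE 0.315, adjusted p = 0.000221 in edgeR) and held under every alternative. On day 5 the libraries spread from 9.66 to 28.0 CPM (13.3, 28.0 and 9.66 CPM), all above day 3, and the rise was 1.6 (SE 0.318, adjusted p = 0.000568), or 0.93 without day 5 replicate 2 (adjusted p = 0.0149). It was lost only in the fit restricted to the 2 days (adjusted p = 0.0528). On day 7 ABHD5 had 7.83, 8.42 and 10.8 CPM, and was 1.04 lower than on day 0 (SE 0.314, adjusted p = 0.00723) with no overlap. On day 28 (12.5, 12.5 and 17.3 CPM) all libraries were still under those of day 0, with a log2 change of -0.40 that was not called (SE 0.301, adjusted p = 0.26). In edgeR this change was called with only the 2 days in the fit (-0.41, adjusted p = 0.0126). With GC and length trends removed it reached -0.97 (adjusted p = 2.65e-06).

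G0S2, the inhibitor of PNPLA2, showed the widest range of the 10 genes. In the 12 libraries of days 0 to 5 it lay between 0.200 and 1.20 CPM. Day 5 had 1.20, 0.904 and 0.743 CPM, and day 7 had 14.9, 24.4 and 25.9 CPM, a rise of 4.48 on the log2 scale (SE 0.346, adjusted p = 1.3e-09 in edgeR). No library of day 5 came near those of day 7, and leaving out any one of the 6 gave 4.38 to 4.73. Day 10 had 30.3 and 25.5 CPM, day 14 had 19.3, 9.76 and 12.8 CPM, and day 28 had 14.3, 15.3 and 15.5 CPM. The lower level on day 14 than on day 10 was not called (-1.0, SE 0.288, adjusted p = 0.0515 in edgeR; 0.0255 in DESeq2), and day 28 remained 5.19 above day 0 (SE 0.346, adjusted p = 2.52e-12). A smaller rise from day 3 (0.310, 0.622 and 0.200 CPM) to day 5 (1.34, SE 0.453, adjusted p = 0.0419) rested on 17 counts on day 3 and 26 on day 5, and was lost in 4 of the fits that left out a library (adjusted p of up to 0.203), with the replicate block (1.35, adjusted p = 0.0545), in DESeq2 (0.0593) and in 5 other settings. At this depth its level before day 7 is close to that of a few reads per library.

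The mix of droplet genes was then set side by side per length of exon. Among perilipins, PLIN2 and PLIN3 together made up nearly all of the summed CPM per kb on every day. PLIN3 held 57.8 ± 0.853% of it on day 0 and 65.8 ± 2.97% on day 7, and PLIN2 held 54.0 ± 2.13% on day 14 (SD, n = 3 each). Without the division by length PLIN2 held the larger share on day 0 too, 55.4% against 42.7% for PLIN3. PLIN5 held 2.60 ± 0.977% on day 5, where day 5 replicate 3 had 3.73% and the other 2 libraries 2.02% and 2.05%, against 1.87% to 2.08% on day 3, and PLIN1 never exceeded a mean share of 0.633%. The ratio of PLIN2 to PLIN3 in CPM per kb was 0.441 to 0.563 in the libraries of day 7 and 1.16 to 1.36 in those of day 14. Day 28 was back at 0.588 to 0.686, under the 0.690 to 0.734 of day 0. Day 5 replicate 3 had a ratio of 0.181, the lowest of all libraries, and the other libraries of that day had 0.954 and 1.39.

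Among the lipases and their cofactors the order changed between days 5 and 7. On day 0 PNPLA2 and ABHD5 stood level, at 2.45 ± 0.0940 and 2.47 ± 0.0560 CPM per kb, followed by LIPE (1.14 ± 0.109), G0S2 (0.459 ± 0.0562) and MGLL (0.0722 ± 0.0144; SD, n = 3 each). On day 28 G0S2 came first, at 17.2 ± 0.726 CPM per kb, followed by PNPLA2 (4.11 ± 0.778), ABHD5 (1.87 ± 0.372), LIPE (1.00 ± 0.0847) and MGLL (0.264 ± 0.0859). G0S2 thus went from 6.98 ± 1.00% of the summed CPM per kb of these 5 genes on day 0 to 68.1 ± 7.04% on day 7 and 70.3 ± 1.75% on day 28. G0S2 has the shortest exons of the 5, and these shares and the order rest on the division by length. Without it G0S2 held 1.15% of the summed CPM on day 0, 30.1% on day 7 and 28.4% on day 28, where PNPLA2 held 26.8%, 44.7% and 29.6%.

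**Figure D2:**
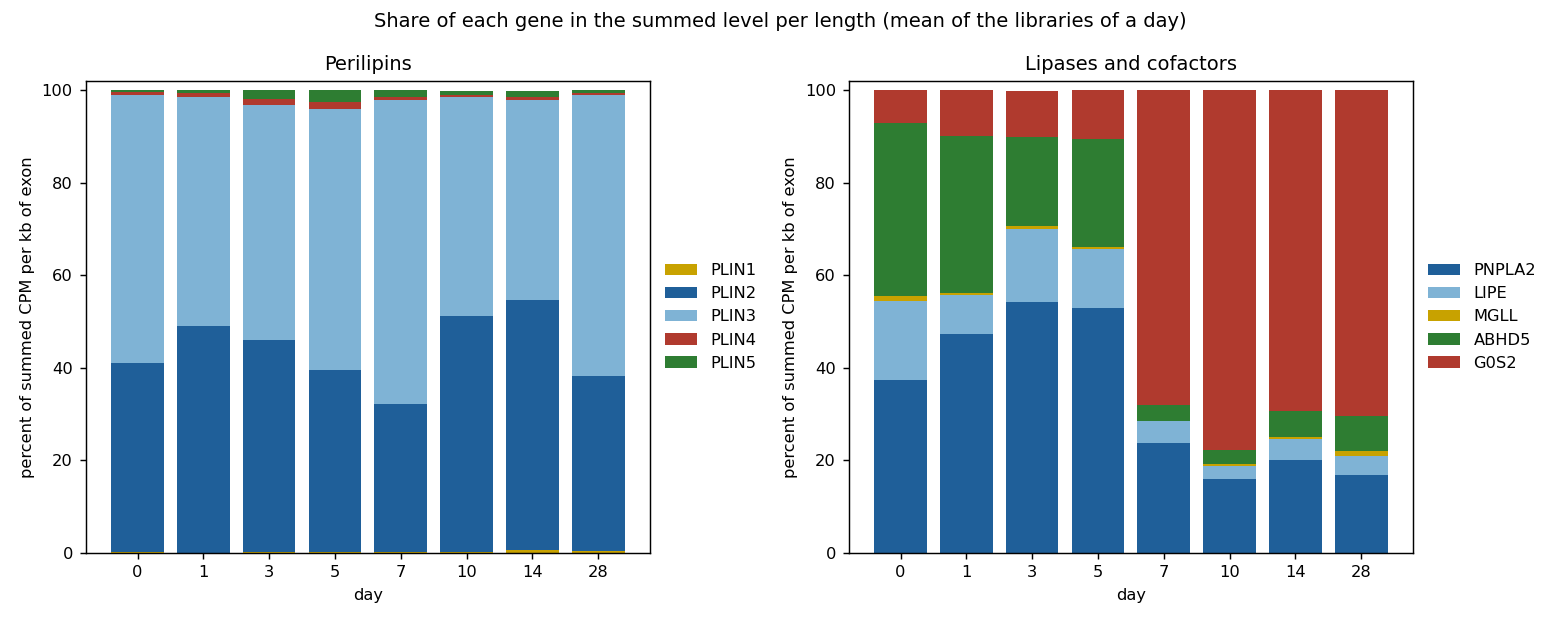
Make-up of the summed level by day, for the perilipins (left) and for the lipases and cofactors (right). Each bar is the mean share of the libraries of a day, in percent of summed CPM per kb of exon. G0S2 rises from 10.5% on day 5 to 68.1% on day 7, while PLIN2 and PLIN3 fill most of every perilipin bar.

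Within single libraries the ratio of G0S2 to PNPLA2 was 0.0788 to 0.364 in the 12 libraries of days 0 to 5 and 1.93 to 5.87 in the 11 libraries of days 7 to 28. The ratio is taken inside a library, so library totals and TMM factors do not enter it. The 2 ranges did not overlap, also with the tilted libraries of days 3 and 5 included. The ratio of ABHD5 to PNPLA2 was 0.974 to 1.03 on day 0, 0.118 to 0.175 on day 7 and 0.333 to 0.666 on day 28, with no overlap between these 3 days. ABHD5 is GC-poor and PNPLA2 GC-rich (percentiles 6.06 and 96.2 of tested genes), so the GC balance of a library enters this ratio. Its part in the differences between days was not tested. On day 5 the ratio ran from 0.129 (replicate 3) to 1.31 (replicate 2), the widest spread of any day.

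**Figure D3:**
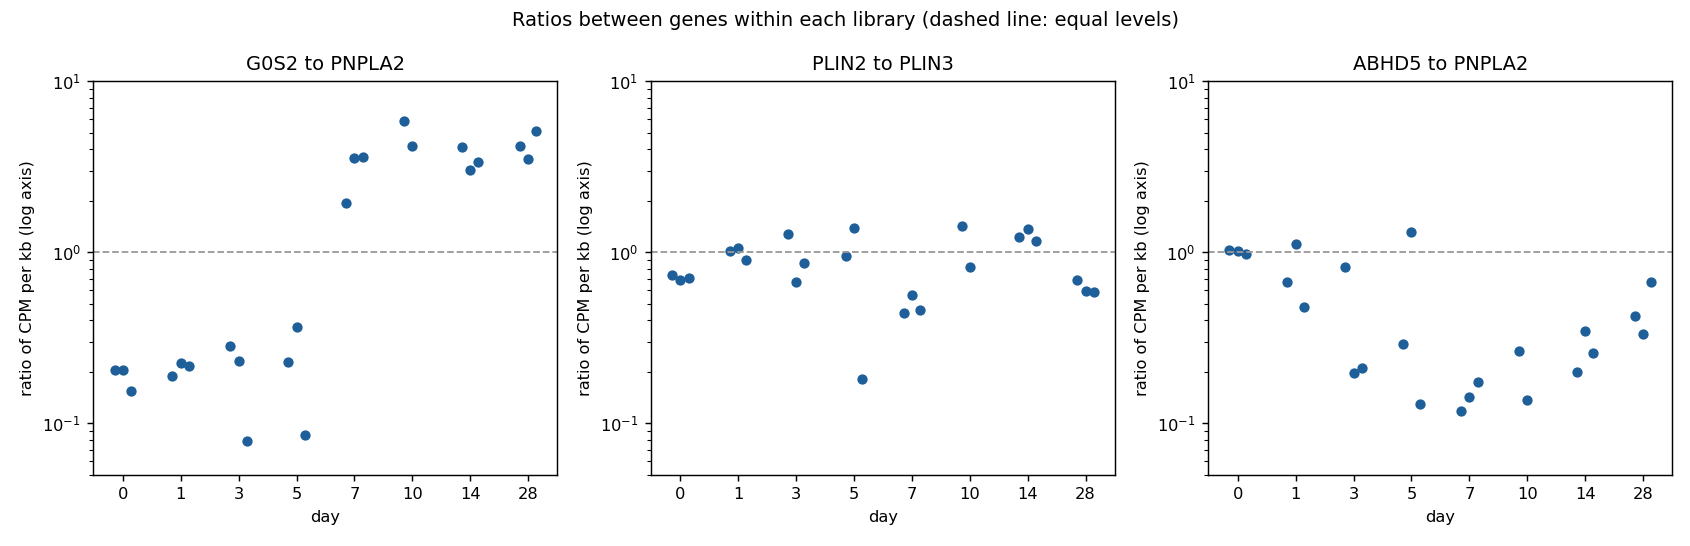
Ratios of CPM per kb within each library on a log axis, for G0S2 to PNPLA2, PLIN2 to PLIN3 and ABHD5 to PNPLA2. Each point is 1 library, the horizontal axis is the day of differentiation and the dashed line marks equal levels. G0S2 to PNPLA2 goes from at most 0.364 to at least 1.93 between days 5 and 7.

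Across the comparisons, counts of called genes among the 10 were read against the share of all tested genes called in the same direction. From day 0 to day 1, 3 were higher (PLIN2, PLIN4, PLIN5) and 2 lower (LIPE, MGLL), where 15.3% of tested genes were called higher and 16.5% lower. From day 1 to day 3, PLIN5 was higher and ABHD5 lower, so 1 each way (background 18.2% and 19.0%). From day 3 to day 5, 4 were called, all higher (PNPLA2, LIPE, ABHD5, G0S2), beside 10.3% higher and 6.33% lower of tested genes. From day 5 to day 7, 1 was called, G0S2, higher (5.33% and 5.02%), and from day 7 to day 10 it was also 1, MGLL, higher (4.16% and 3.49%). Between days 10 and 14, edgeR called 0 of the 10, with 1 at an unadjusted p under 0.05, and DESeq2 called 1, both times G0S2 (background 1.64% and 2.11%). Between days 14 and 28, 2 were called, both lower (PLIN2, PLIN5), beside 7.96% higher and 7.78% lower. From day 0 to day 28, 2 were called, both higher (G0S2, MGLL), against 32.1% higher and 28.4% lower of tested genes, and 8 of the 10 were not called.

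The 2 comparisons that were added split that interval at day 7. From day 0 to day 7, 4 were higher (PLIN3, PLIN5, PNPLA2, G0S2) and 1 lower (ABHD5), with 28.3% and 25.8% of tested genes called. From day 7 to day 28, 1 was higher (MGLL) and 3 lower (PLIN3, PLIN5, PNPLA2), with 25.0% and 23.6%. The 3 genes that were higher on day 7 than on day 0 and lower on day 28 than on day 7 are PLIN3, PLIN5 and PNPLA2. The share of all tested genes with both of these calls was not counted. With GC and length trends removed only PLIN5 of these 3 was called from day 7 to day 28, while PLIN3 (-0.04, adjusted p = 0.814 in edgeR) and PNPLA2 (-0.24, adjusted p = 0.215) were not. These comparisons share the day 7 libraries, so their values are given side by side and not as separate evidence. The median log2 change of the 10 was 0.77 from day 0 to day 7 (0.07 over all tested genes), -0.62 from day 7 to day 28 (0.00) and 0.50 from day 0 to day 28 (0.09). Without TMM, on library totals alone, the median over all tested genes moved to 0.272 for day 7 against day 0 and to -0.322 for day 28 against day 7, and the share of calls that were higher went from 51.4% to 34.2% in the latter. No called change of the 10 genes changed sign under any alternative.

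**Figure D4:**
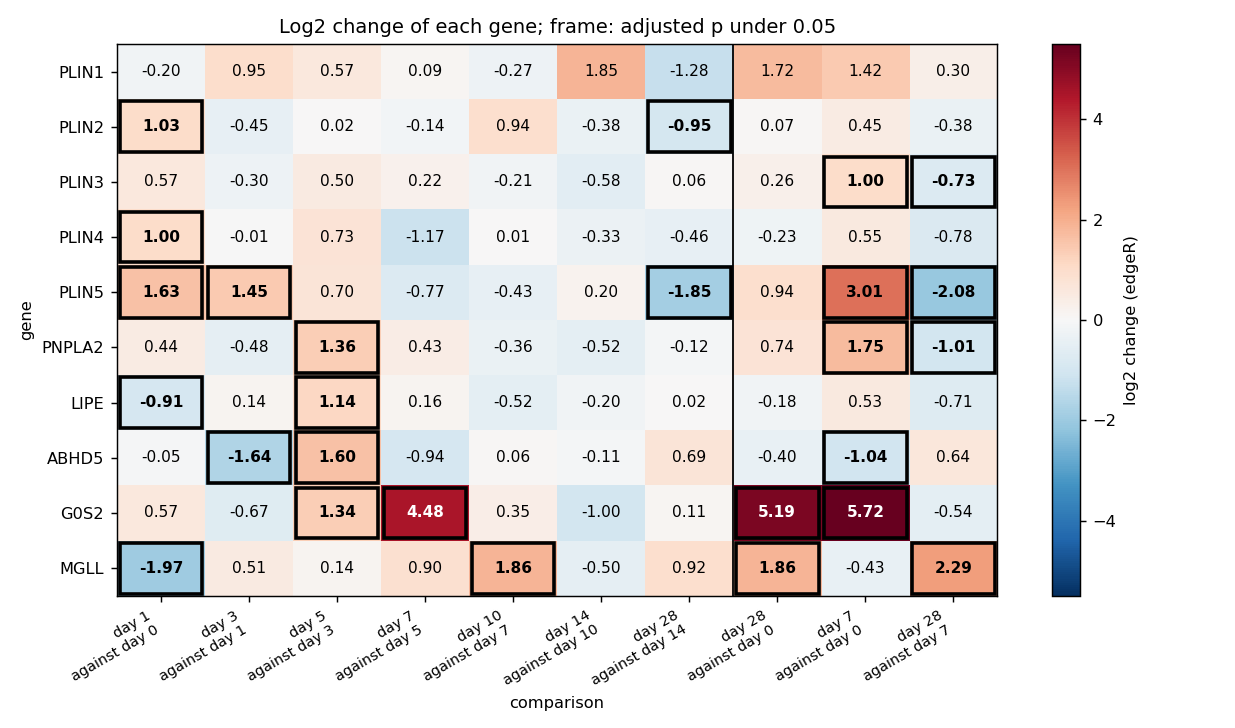
Log2 change of each of the 10 genes (rows) in each of the 10 comparisons (columns), from edgeR. The printed number and the colour give the log2 change, and a frame with bold type marks an adjusted p under 0.05; the vertical line sets the 7 steps between neighbouring days apart from the longer comparisons. G0S2 has 4.48 from day 5 to day 7, 5.19 from day 0 to day 28 and 5.72 from day 0 to day 7.

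The day 5 results depend on the libraries used. With all libraries 4 of the 10 were called from day 3 to day 5. Without day 5 replicate 3 there were 2 (ABHD5 and G0S2), without day 5 replicate 2 there were 6 (PLIN3, PLIN4 and PLIN5 added, G0S2 lost), and without day 3 replicate 1 there was 1 (ABHD5). Of the 22245 tested genes, 3694 were called with all libraries. Without day 5 replicate 3 it was 3347, without day 5 replicate 2 it was 7993, and without day 3 replicate 1 it was 2892. From day 5 to day 7, 1 was called with all libraries, 3 without day 5 replicate 2 (PLIN4 and PLIN5 lower, G0S2 higher) and 3 without day 5 replicate 3 (ABHD5 lower, LIPE and G0S2 higher). Over all tested genes these fits called 2302, 3936 and 3358, in the same order. The order of the day 5 libraries is given beside the GC content of the genes. PNPLA2 (64.5% GC, the 96.2 percentile of tested genes), PLIN4 (62.4%), PLIN5 (61.8%) and LIPE (61.0%) were each highest in day 5 replicate 3 of that day's libraries, and ABHD5 (37.0%, percentile 6.06) was highest in day 5 replicate 2. PLIN2, at 47.6% GC (percentile 49.2), was lowest in day 5 replicate 3, at 36.7 CPM against 93.3 and 105 CPM. G0S2, at 57.1% GC (percentile 79.7), was lowest in day 5 replicate 3, at 0.743 CPM against 1.20 and 0.904 CPM. These values rest on 3, 10 and 13 counts, too few to order the libraries. PLIN3 (58% GC), PLIN1 (55.9%) and MGLL (56.5%) were highest in day 5 replicate 3, PLIN1 and MGLL there with only 3 and 4 counts. The part of GC content and of library preparation in these differences between the day 5 libraries was not tested. G0S2 rose from day 5 to day 7 in all of these fits.

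**Figure D5:**
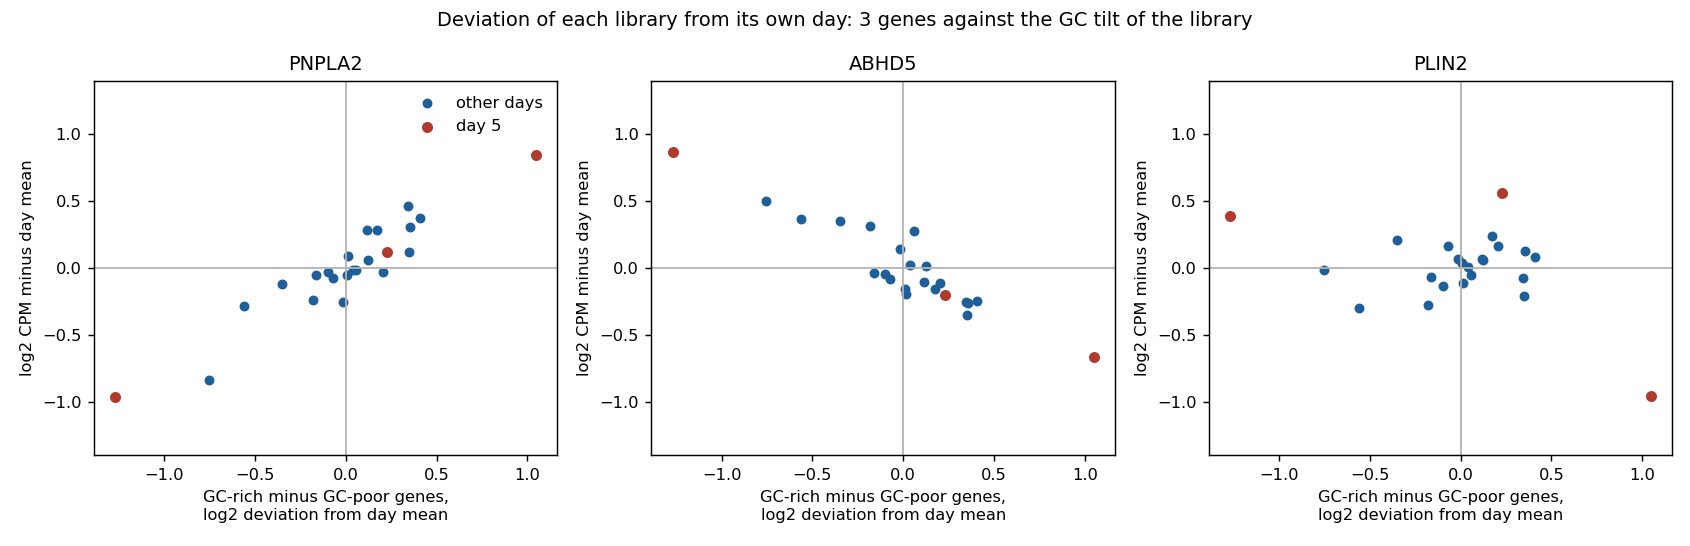
Deviation of each library from its own day for PNPLA2 (GC-rich), ABHD5 (GC-poor) and PLIN2. The horizontal axis is the log2 deviation of GC-rich minus GC-poor genes from the mean of the day, the vertical axis the log2 CPM of the gene minus its mean of the day, and each point is 1 library (red: day 5). The day 5 libraries at -1.27 and 1.05 lie at opposite ends, low and high for PNPLA2 and high and low for ABHD5.

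The other genes of the pathway were taken as 4 lists with 54 members, of which 49 were tested. Among 10 genes of droplet formation and neutral lipid synthesis, 5 rose and 1 fell from day 0 to day 28 (median log2 change 0.93, against 0.09 for all tested genes), where 32.1% of all tested genes were called higher and 28.4% lower. The largest rises were those of FITM1 (7.79, SE 0.546, adjusted p = 6.27e-12 in edgeR) and FITM2 (2.94, SE 0.265, adjusted p = 6.47e-10), which partition triglyceride into droplets. FITM1 went from 0.0895 ± 0.0646 CPM on day 0 to 13.7 ± 1.43 CPM on day 7 and 21.7 ± 5.48 CPM on day 28, and its largest steps came between days 3 and 7, where G0S2 rose too. BSCL2 (seipin), which shapes the budding droplet, was the 1 that fell (-0.99, SE 0.357, adjusted p = 0.0191). FITM1 shares 28.1% of its exon bases, and BSCL2 20.5%, with another gene model on the same strand, so their counts are less certain.

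Of 14 other proteins of the droplet surface, 11 were tested, and 3 rose and 5 fell from day 0 to day 28 (median -0.34; background 32.1% and 28.4%). The rises included HSD17B13, a liver droplet enzyme (3.07, SE 0.794, adjusted p = 0.0017 in edgeR, reaching only 0.370 ± 0.0677 CPM), and VPS13C, a lipid transfer protein (2.91, SE 0.294, adjusted p = 4.64e-09). PNPLA3, a droplet hydrolase related to PNPLA2, fell by 3.86 (SE 0.374, adjusted p = 2.31e-09), from 28.1 ± 2.73 to 1.93 ± 1.19 CPM, and METTL7A fell by 3.37 (SE 0.504, adjusted p = 2.72e-06). CIDEA, CIDEB and CIDEC, which fuse droplets in fat and liver cells, did not reach the count filter, and CIDEB had 0 counts in all libraries. Of 14 other lipid hydrolases, 6 rose and 3 fell (median 0.05), shares near that background. The largest rises were those of CES1 (3.42, SE 0.310, adjusted p = 7.21e-10), a carboxylesterase with a related pseudogene, and PNPLA8 (2.27, SE 0.317, adjusted p = 9.81e-07). The endothelial lipase LIPG (-2.21, SE 0.286, adjusted p = 2.97e-07) and the lysosomal lipase LIPA (-1.75, SE 0.285, adjusted p = 9.21e-06) fell most.

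Among 16 genes of lipolysis control and fatty acid transport, 14 were tested, and 9 rose and 2 fell from day 0 to day 28 (median 1.79; background 32.1% and 28.4%). CD36, the fatty acid transporter of the cell surface, rose by 6.61 (SE 0.577, adjusted p = 3.59e-10 in edgeR), from 0.153 ± 0.0710 to 16.3 ± 3.87 CPM. FABP3, the heart fatty acid binding protein, rose by 4.43 (SE 0.282, adjusted p = 1.07e-12), to 514 ± 84.7 CPM. FABP5, the epidermal form of that protein, which has several pseudogenes, fell by 2.23 (SE 0.269, adjusted p = 9.93e-08), and the transcription factor FOXO1 by 0.76 (SE 0.244, adjusted p = 0.00929). Both FABP3 and CD36 rose again from day 7 to day 28 (2.86, SE 0.263, adjusted p = 4.11e-09, and 2.17, SE 0.432, adjusted p = 0.00023), the interval in which PLIN5 fell. From day 14 to day 28, 3 of these 14 rose and 1 fell (background 7.96% and 7.78%), and of the 10 genes of droplet formation the 1 called fell: DGAT2, which makes triglyceride, with a log2 change of -2.85 (SE 0.303, adjusted p = 1.87e-07).

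Markers of other cell types moved on some of the same days. The summed level of 7 liver and endoderm markers (AFP, ALB, TTR, APOA1, APOB, FGB, SOX17) was 857, 3400 and 5078 CPM in the libraries of day 14 and 125, 167 and 303 CPM on day 28, the step at which PLIN2, PLIN5 and DGAT2 fell. In the same order, the day 14 libraries had 110, 110 and 95.5 CPM of PLIN2 and 2.59, 2.74 and 2.52 CPM of PLIN5. The summed level of 6 fibroblast markers was 360 to 603 CPM on day 14 and 2782 to 3230 CPM on day 28, and that of 4 smooth muscle markers was 286 to 668 CPM on day 5 and 1133 to 1240 CPM on day 7, where G0S2 rose. The same smooth muscle markers went from 241 to 441 CPM on day 14 to 2239 to 2769 CPM on day 28, and 4 endothelial markers from 121 to 194 CPM to 42.7 to 54.5 CPM. TAGLN, a smooth muscle marker, shares 38.1% of its exon bases with another gene model on the same strand. Cardiomyocyte markers went from 1315 to 2838 CPM on day 5 to 9240 to 11412 CPM on day 7. At that step the fibroblast markers went from 1438 to 2322 CPM to 811 to 1517 CPM. The endothelial markers went from 75.3 to 404 CPM to 447 to 495 CPM. The part of these cells in the changes of the droplet genes was not tested. For fat cells the summed level of ADIPOQ, LEP, CFD, FABP4 and CIDEC was at most 2.59 CPM in any library, and FABP4 had 0 counts on every day but day 14. The 5 macrophage markers summed to at most 4.3 CPM, but CD68, which shares 81.6% of its exon bases with another gene model on the same strand, did not pass the count filter, and its level is uncertain.

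Genes with the most similar course over the 8 day means were named for the members that reached 10 CPM on at least 1 day, out of 11866 protein-coding genes, as a description of 8 points. For G0S2 they were TCIM (Pearson r = 0.983) and MASP1 (0.981), which were at 0.291 and 3.86 CPM on day 5, 11.4 and 306 CPM on day 7 and 57.4 and 692 CPM on day 10. For PNPLA2 they were NATD1 (0.972) and ZFYVE1 (0.971), and for PLIN3 they were PLK3 (0.971) and SMIM32 (0.962). The correlation compares the shape of a course and not the size of its changes. SMIM32 went from 0.0723 CPM on day 0 to 51.2 CPM on day 7, where PLIN3 went from 40.1 to 80 CPM. TMEM116 (0.950) and OXA1L (0.942) came closest to PLIN2, and LZTS3 (0.932) and FRAS1 (0.923) to ABHD5. All of these correlations share the same libraries and their GC balance.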

How the data were processed

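Total RNA was extracted with Trizol, depleted of ribosomal RNA and made into stranded libraries (TruSeq Stranded Total RNA HMR kit) that were sequenced on a NextSeq, per the labels' protocols. Per the submitters' processing notes, reads were processed with Trim Galore 0.65, STAR 2.7.0 and HTSeq on GRCh38 (hg38); the strand setting is not given in the sources used here. The authors deposited raw counts per gene, 1 column per library, as whole numbers with no normalization. The table has 57521 identifiers; 44 Y copies of pseudoautosomal genes, with 0 counts, were left out. Names, exon lengths and coordinates were taken from GENCODE 44, which holds 56387 of the identifiers and lacks 1090.

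Genes were kept by filterByExpr (minimum count 10), scaled by TMM (factors 0.880 to 1.16) and tested with edgeR 4.0.16 (glmQLFit, robust, and glmQLFTest; R 4.3.3, limma 3.58.1) on all 23 libraries with day as factor, so that all days share the estimate of spread. P-values were adjusted by Benjamini-Hochberg over 22245 genes and called under 0.05, two-sided. Fold changes are on edgeR's log2 scale with its prior count. The SE beside them was derived as the absolute log2 change divided by the square root of the test's F statistic. Comparisons of neighbouring days share libraries. DESeq2 1.42.0, other scalings, no filter, a replicate block, fits of only the 2 days and leaving out each library were run as alternatives. The removal of per-library trends on GC content and length (21987 genes with values) and the comparisons of day 7 with day 0 and of day 28 with day 7 were chosen after seeing the data. The members, pathway lists and marker lists were chosen with earlier results of these data known. Named genes are all 10 members, the up to 2 called genes of each list with the largest rise and fall, and the 2 protein-coding genes most like each member with a mean of at least 10 CPM on a day. DGAT2 (day 14 to day 28) follows that rule too. The edgeR script was tested on simulated data. Totals were lowest, and counting error largest, in day 5 replicate 3 and day 7 replicate 1.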

Additional observations from a re-analysis of the deposited data

How the results depend on the processing

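Of 100 changes of the 10 genes, 26 were called and 16 of these were called under every alternative. No called change changed sign; 31 of the 74 uncalled ones did under some alternative, and 26 of the 74 were called under one. ABHD5 from day 0 to day 1 was -0.05 (not called) and became 0.64 (adjusted p = 0.0013 in edgeR) with GC and length trends removed.

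The number of members called moved as follows. Day 1 against day 0: 5, and 3 to 4 when a library was left out. Day 5 against day 3: 4, and 2 with no filter, 0 with only the 2 days and 1 to 6 when a library was left out. Day 7 against day 5: 1, and 5 with GC and length trends removed and 1 to 3 when a library was left out. Day 10 against day 7: 1, and 0 with upper-quartile factors, library totals or any library left out, 2 with no filter, only the 2 days or DESeq2, and 3 with GC and length trends removed. Day 14 against day 10: 0, and 1 with RLE factors, only the 2 days or DESeq2, 2 with GC and length trends removed and 0 to 1 when a library was left out. Day 28 against day 14: 2, and 1 to 2 when a library was left out. Day 28 against day 0: 2, and 4 with only the 2 days and 6 with GC and length trends removed. Of the 22245 genes tested, 13464 were called for it in the main fit. With only the 2 days it was 16367, and with GC and length trends removed 15341. Day 28 against day 7: 4, and 8 with library totals or only the 2 days, 2 with GC and length trends removed and 2 to 4 when a library was left out. Over all genes 10802 were called for it in the main fit and 11095 with library totals. With only the 2 days it was 13679, and with GC and length trends removed 11068.

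Of all genes, 7081 were called for day 1 against day 0 (3954 to 8196 when a library was left out). Day 5 against day 3 had 3694 (1641 with only the 2 days, 2892 to 7993 when a library was left out), day 7 against day 5 had 2302 (913 with only the 2 days, 4753 with GC and length trends removed, 1316 to 3936), day 10 against day 7 had 1703 (4482 and 3629, 293 to 1018), day 14 against day 10 had 833 (1707 and 1993, 1314 in DESeq2, 174 to 775) and day 28 against day 14 had 3502 (6435 and 6175). On library totals the share of calls that were higher went from 48.9% to 63.9% (day 3 against day 1), 51.5% to 67.9% (day 7 against day 5), 54.4% to 32% (day 10 against day 7) and 50.6% to 32% (day 28 against day 14), and the median of all genes from 0.038 to 0.267, -0.093 to 0.052, 0.029 to -0.147 and -0.028 to -0.234.

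With the replicate number as a block (replicate block), 0 of the members were called for day 10 against day 7, where 1 was without it, and G0S2 from day 3 to day 5 was lost. Deviations of same-numbered libraries correlated at -0.464 to 0.279 and in no comparison was every pair over 0.1, so the numbers are not read as pairs. Leaving out 1 of the 2 day 10 libraries assumes that the other varies as the libraries of other days do. Leaving out the division by exon length moved 62 of the 80 shares by more than 1 SD. Depth limits PLIN1 (74 counts), MGLL (286), PLIN5 (537) and PLIN4 (556).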
